A study of Mus musculus with 6 samples.

Results

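The endoplasmic reticulum (ER) folds, pairs the cysteines of, glycosylates and inspects every protein that a liver cell secretes. The genes of this machinery were followed here in livers of Ghrh-KO mice. The group is a fixed list of 41 genes in 4 branches: 15 chaperones and lectins, 7 disulfide enzymes, 8 genes of the stress sensors and their signals, and 11 genes of ER-associated degradation (ERAD). They are 41 of the 18193 genes that have a probe set of their own on the Affymetrix Mouse Genome array, each gene was read on its probe set with the highest mean, and all 41 passed the filter on dim probe sets. The list was drawn up by function, not by a threshold on these values, but earlier results of these arrays were known when it was chosen.

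The arrays hold liver RNA of 3 Ghrh-KO males, which lack the releasing hormone that drives the pituitary to make growth hormone, and of 3 wild-type control males from the same litters. Mice of both groups had mixed C57BL6 and 129SV ancestry, were 10 months old by the study's methods, ate the same laboratory diet in a closed colony, and were fasted for 6 to 8 h before death. Ghrh is made in the hypothalamus, so the livers stand for an animal with little growth hormone and not for cells that lost a gene of their own. Each array holds 1 animal, numbered 4, 5 and 6 in the Ghrh-KO group and 1, 2 and 3 in the control group.

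The lumen of the ER holds HSP70 and HSP90 chaperones with their co-chaperones, the lectins calnexin and calreticulin, and a family of protein disulfide isomerases. When unfolded proteins gather, the sensors IRE1, PERK and ATF6 start the unfolded protein response: IRE1 splices the Xbp1 messenger, PERK slows translation through eIF2 and favours that of ATF4, and ATF6 is cut to release a transcription factor. Proteins that cannot be folded are passed by mannose-trimming EDEM proteins and lectins to a ubiquitin ligase of Syvn1 (HRD1) and Sel1l, pulled out by the ATPase Vcp and destroyed. Hepatocytes, which secrete albumin and most other plasma proteins, use this system at a high rate.

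In Ghrh-KO livers 3 of the 41 genes fell and none rose: Creld2, Syvn1 and Atf4. A gene was called at an adjusted p under 0.05 (limma with Benjamini-Hochberg adjustment over all probe sets tested) and a fold change below 0.67 or above 1.5. Over all 12469 genes tested, 0.970% were called lower and 0.786% higher, and the same shares passed when any fold was allowed. The 3 genes are 7.32% of the group. At an unadjusted p under 0.05 the group had 21 genes lower and 0 higher, or 51.2% lower, where all genes had 10.1% lower and 9.15% higher. The log2 fold change, Ghrh-KO minus control, was below 0 for 40 of the 41 genes, or 97.6%, against 49.5% of all genes.

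The groups did not overlap for 27 of the 41 genes, or 65.9%: each Ghrh-KO array read below each control array. Among all genes 15.7% were lower without overlap and 12.7% higher, and no gene of the group was higher without overlap. The other 14 genes overlapped. The median log2 fold change of the 41 genes was -0.39, within a range of -2.53 to 0.02, while all genes had a median of 0.00 and quartiles of -0.18 and 0.19. These are descriptions of a list and not tests of it. RNA of the whole liver was measured, so fewer cells of a type and less RNA per cell cannot be told apart.

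**Figure D1:**
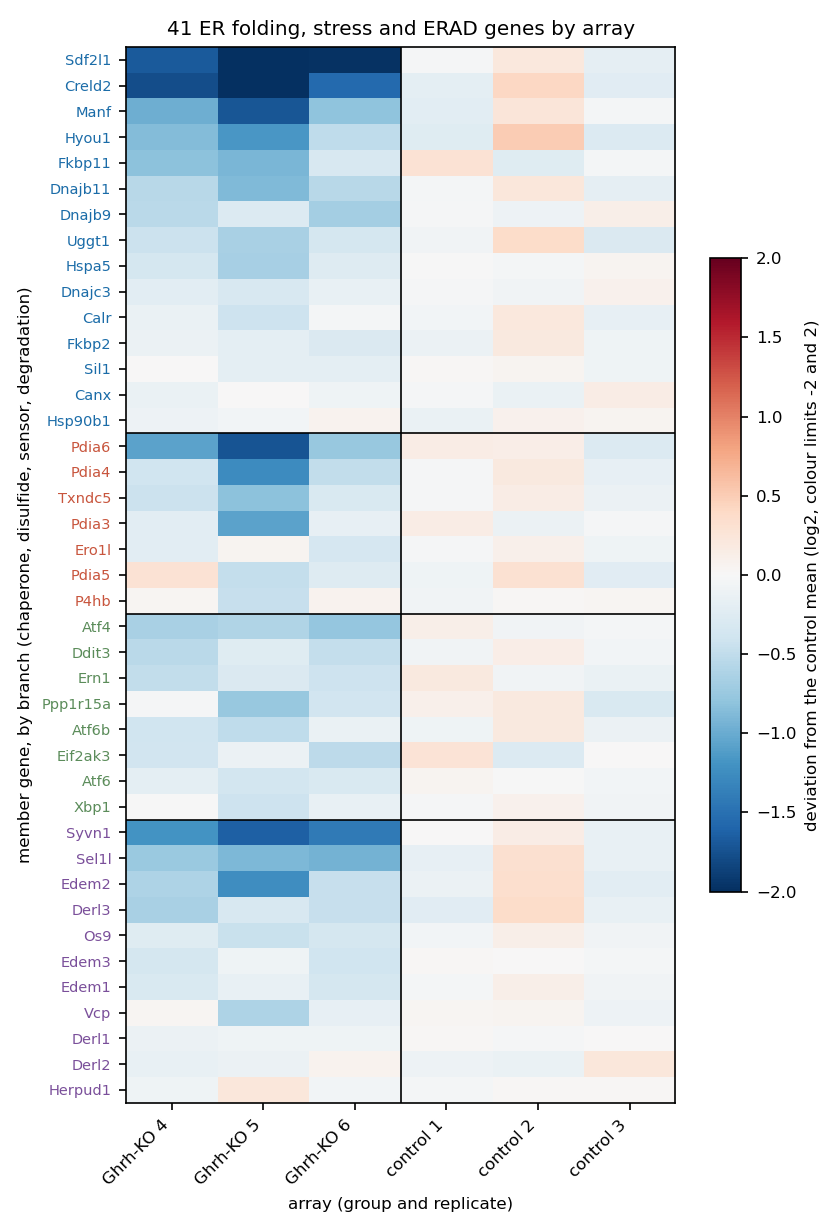
Deviation of each of the 41 genes (rows, by branch, ordered by log2 fold change) from its mean over the 3 control arrays, on the log2 scale, in each array (columns). Blue is below the control mean and red above it, and values past -2 or 2 share the end colour; Sdf2l1 and Creld2 are the darkest rows, and Ghrh-KO replicate 5 is the darkest column in the chaperone and disulfide branches.

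The depth of the decrease differed between animals. The mean deviation of the 41 genes from the control mean was -0.43, -0.68 and -0.43 in Ghrh-KO replicates 4, 5 and 6, and -0.02, 0.10 and -0.08 in control replicates 1, 2 and 3 (log2). Ghrh-KO replicate 5 was the lowest of the 6 arrays for 24 of the 41 genes, where it was the lowest for 21.1% of all genes. Control replicate 2 was the highest for 25 of the 41 genes, where it was the highest for 20.3% of all genes. The same animals had the widest arrays. Width was read from each tested probe set's deviation from its median over the 6 arrays, which includes differences between groups. The interquartile range was 0.185, 0.357 and 0.19 in Ghrh-KO replicates 4, 5 and 6, and 0.249, 0.316 and 0.189 in control replicates 1, 2 and 3. Without both of these arrays, 31 of the 41 genes were lower without overlap, a looser condition with 2 arrays a group that 29.4% of all genes met, and the median of the 41 genes was -0.27. What part the quality of these arrays had was not tested.

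**Figure D2:**
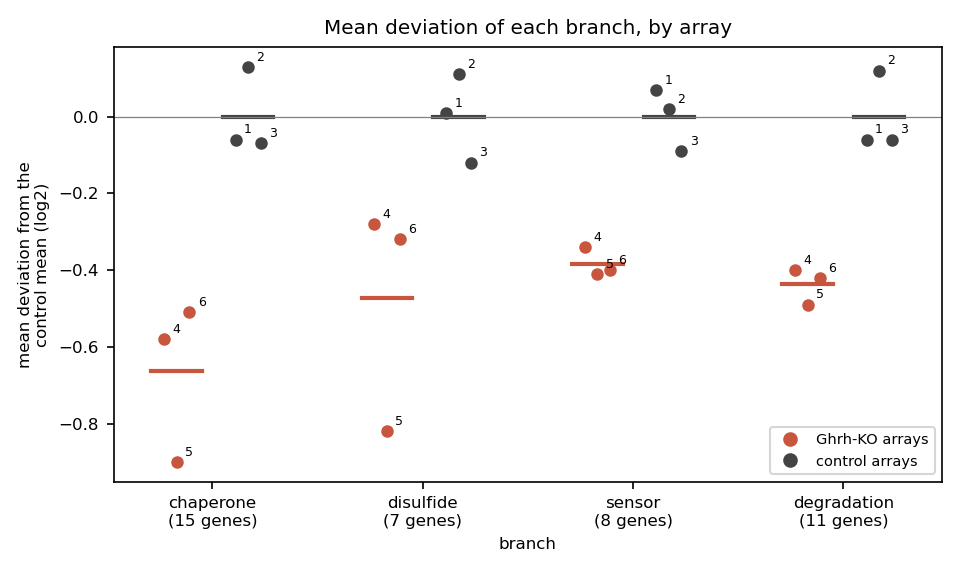
Mean deviation of the genes of each branch from the control mean (vertical axis, log2) in each array, with the replicate number beside each point and the mean of each group as a bar. In each branch the 3 Ghrh-KO arrays lie below the 3 control arrays, and replicate 5 stands lowest in the chaperone branch (-0.90) and the disulfide branch (-0.82), while in the sensor branch it is at -0.41 beside -0.34 and -0.40.

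The chaperone branch had a median log2 fold change of -0.48, close to the -0.47 of the disulfide branch, with 10 of 15 genes lower without overlap and 9 at an unadjusted p under 0.05. Creld2, an ER protein with EGF-like domains and isomerase activity that is induced by ER stress, read 9.49, 9.17 and 9.72 in Ghrh-KO livers, against 11.07, 11.69 and 11.05 in control livers (RMA values, log2). The groups were more than 1 unit apart. Creld2 averaged 9.46 ± 0.28 in Ghrh-KO livers and 11.27 ± 0.36 in control livers (SD, n = 3 each), a log2 fold change of -1.81 ± 0.22 (standard error) with an adjusted p of 0.0143 (limma, Benjamini-Hochberg), or 3.51-fold lower.

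Sdf2l1, which works with the J-domain protein Dnajb11 to keep clients of the HSP70 chaperone soluble, read 8.67, 6.41 and 8.37 in Ghrh-KO livers, against 10.32, 10.56 and 10.16 in control livers. Its log2 fold change was the lowest of the 41, -2.53, but its standard error of 0.55 was also the widest of the 41 and its adjusted p of 0.0799 (limma, Benjamini-Hochberg) missed the threshold. The spread came from replicate 5: with that animal left out the log2 fold change was -1.83 and Sdf2l1 passed, with an adjusted p of 0.00753 in the same test. Manf, a small ER protein that binds the HSP70 chaperone and can be secreted, read 11.00, 10.27 and 11.18 in Ghrh-KO livers, against 11.77, 12.23 and 11.95 in control livers (log2 fold change -1.17, standard error 0.25, adjusted p = 0.0797, limma).

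Hspa5 (BiP), the HSP70 chaperone of the ER and the keeper that holds the sensors silent, had a smaller difference. It read 13.06, 12.75 and 13.15 in Ghrh-KO livers, against 13.40, 13.37 and 13.46 in control livers. The groups lay apart, but the log2 fold change was -0.43 (95% interval -0.75 to -0.11) and the adjusted p was 0.175 (limma, Benjamini-Hochberg). Hsp90b1 (GRP94), the HSP90 chaperone beside it, read 12.57, 12.62 and 12.74 in Ghrh-KO livers, against 12.53, 12.76 and 12.72 in control livers. Its groups overlapped, and the 95% interval of its log2 fold change ran from -0.31 to 0.25.

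The other chaperones lay between these ends, and none of them passed the test. Hyou1, a nucleotide exchange factor for BiP, had a log2 fold change of -0.84, and Fkbp11, a prolyl isomerase of secretory cells, one of -0.68. Dnajb11 and Dnajb9, J-domain proteins that bring clients to BiP, had log2 fold changes of -0.67 and -0.50. All 4 had groups that lay apart. Uggt1, the glucosyltransferase that marks misfolded glycoproteins for another round of folding, was at -0.48, and Dnajc3 (p58IPK) at -0.23. Both of these lay apart too. The lectins Calr and Canx, with Fkbp2 and the exchange factor Sil1, were between -0.20 and -0.07.

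**Figure D3:**
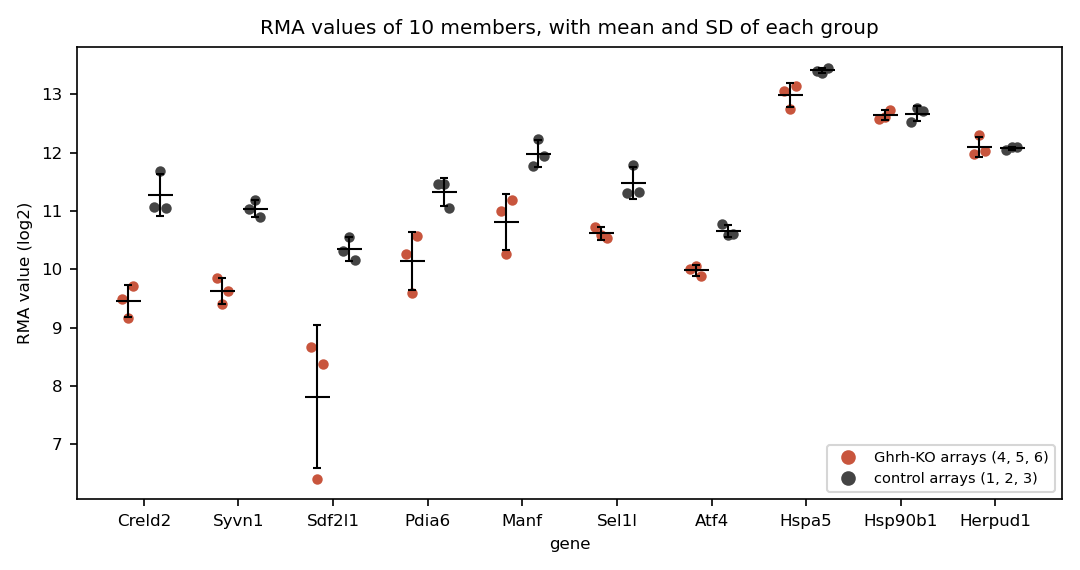
RMA values (log2, vertical axis) of 10 of the genes in each array, with Ghrh-KO left of control; the horizontal mark is the group mean and the bar its SD (n = 3). Creld2, Syvn1 and Atf4 are well apart, with a spread that is small beside the difference between groups. Sdf2l1 has 1 Ghrh-KO animal at 6.41, and Hsp90b1 and Herpud1 overlap. Heights are not comparable between genes, since each gene is read by its own probes.

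Among the disulfide enzymes, Pdia6 and Pdia4 stood lowest. Pdia6, an isomerase that also binds the luminal side of IRE1 and PERK, read 10.26, 9.60 and 10.57 in Ghrh-KO livers, against 11.47, 11.46 and 11.05 in control livers. The groups lay apart, with a log2 fold change of -1.18 (standard error 0.26) and an adjusted p of 0.0821 (limma, Benjamini-Hochberg). A dimmer probe set of Pdia6 read 4.74, 4.41 and 5.10 in Ghrh-KO livers, against 6.36, 6.24 and 6.21 in control livers. There the log2 fold change was -1.52 and passed, with an adjusted p of 0.0134 in the same test. Its Ghrh-KO values were near background, where Ghrh read 4.40 to 4.75 over the arrays, so the size of this change is uncertain. Where the most significant probe set stood for each gene, which favours such calls, 4 of the 41 genes were called lower, and so were 1.23% of all genes.

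Pdia4, a large isomerase of the same family, read 10.44, 9.59 and 10.35 in Ghrh-KO livers, against 10.82, 11.03 and 10.67 in control livers (log2 fold change -0.71, adjusted p = 0.189, limma). Without replicate 5 the log2 fold change of Pdia4 was -0.44, and without control replicate 2 as well it was -0.35. Replicate 5 was the lowest in 6 of the 7 disulfide genes. The branch had a median log2 fold change of -0.47, which was -0.27 without that animal. Txndc5 was at -0.52 and lay apart, and Pdia3, the isomerase that works with the lectins, was at -0.47 and also lay apart. Ero1l (Ero1a), the oxidase that recharges the isomerases, was at -0.16, Pdia5 at -0.14 and P4hb, the founding isomerase, at -0.11, and these 3 overlapped.

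In the sensor branch Atf4 fell. Atf4, the transcription factor whose translation rises when eIF2 is phosphorylated, read 10.01, 10.06 and 9.88 in Ghrh-KO livers, against 10.77, 10.59 and 10.61 in control livers. It averaged 9.98 ± 0.09 in Ghrh-KO livers and 10.66 ± 0.10 in control livers (SD, n = 3 each), which gave -0.67 ± 0.12 (standard error) as the log2 fold change with an adjusted p of 0.0447 (limma). The call is a narrow one, as Atf4 had adjusted p-values of 0.0681 to 0.162 when single animals were left out. A second Atf4 probe set read 8.31, 7.86 and 8.06 in Ghrh-KO livers, against 8.77, 8.58 and 9.03 in control livers, with a log2 fold change of -0.72 and an adjusted p of 0.0981 (limma).

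Ddit3 (CHOP), a pro-apoptotic factor downstream of Atf4, read 7.43, 7.74 and 7.50 in Ghrh-KO livers, against 7.90, 8.11 and 7.92 in control livers. These groups lay apart, with a log2 fold change of -0.42 that missed the threshold (adjusted p = 0.17, limma). Ppp1r15a (GADD34), which directs the phosphatase for eIF2, was at -0.39 and overlapped. None of the sensors passed the test: Ern1 (IRE1) had a log2 fold change of -0.40, Eif2ak3 (PERK) one of -0.34, Atf6 one of -0.29 and Atf6b one of -0.35. Xbp1, the factor that IRE1 activates by splicing, was at -0.19 (95% interval -0.52 to 0.13). Its probe sets read the sum of spliced and unspliced messengers, so splicing was not measured, and neither was phosphorylation or cleavage of the sensors. The branch median was -0.37, with 5 of 8 genes apart and 4 at an unadjusted p under 0.05.

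In the degradation branch Syvn1 and Sel1l had the lowest log2 fold changes, and the branch median was -0.28 with 8 of 11 genes apart. Syvn1 (HRD1), the ubiquitin ligase in the ER membrane, read 9.85, 9.41 and 9.63 in Ghrh-KO livers, against 11.04, 11.19 and 10.89 in control livers. All 3 Ghrh-KO animals were more than 1 unit below the lowest control. Syvn1 averaged 9.63 ± 0.22 in Ghrh-KO livers and 11.04 ± 0.15 in control livers (SD, n = 3 each), which gave -1.41 ± 0.15 (standard error) as the log2 fold change with an adjusted p of 0.00813 (limma), or 2.65-fold lower. Its second probe set was called too, with a log2 fold change of -1.53 (adjusted p = 0.0225, limma).

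Sel1l, the partner that holds Syvn1 in its complex, read 10.73, 10.58 and 10.53 in Ghrh-KO livers, against 11.31, 11.79 and 11.33 in control livers. The log2 fold change was -0.86 (standard error 0.16), and the adjusted p of 0.0577 (limma) narrowly missed the threshold. The 4 other probe sets of Sel1l had log2 fold changes of -0.74, -1.04, -1.15 and -1.76, all with groups apart and none called. Edem2, which starts mannose trimming, was at -0.78, Derl3, a derlin of the export channel, at -0.47, and Os9, the lectin that delivers trimmed clients to Sel1l, at -0.35. Each of the 3 lay apart. Edem3 at -0.28, Edem1 at -0.27 and Derl1 at -0.10 also lay apart, while Vcp at -0.25 and Derl2 at -0.07 overlapped. A second, dimmer probe set of Derl2 was at -0.57 and lay apart (adjusted p = 0.0499, limma). Its fold change of 0.674 narrowly missed the threshold of 0.67. Herpud1, a scaffold of the same ligase and a target of both ATF4 and ATF6, was the only gene of the 41 above 0, at 0.02 (95% interval -0.27 to 0.32). It read 11.98, 12.30 and 12.02 in Ghrh-KO livers, against 12.04, 12.09 and 12.09 in control livers.

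**Figure D4:**
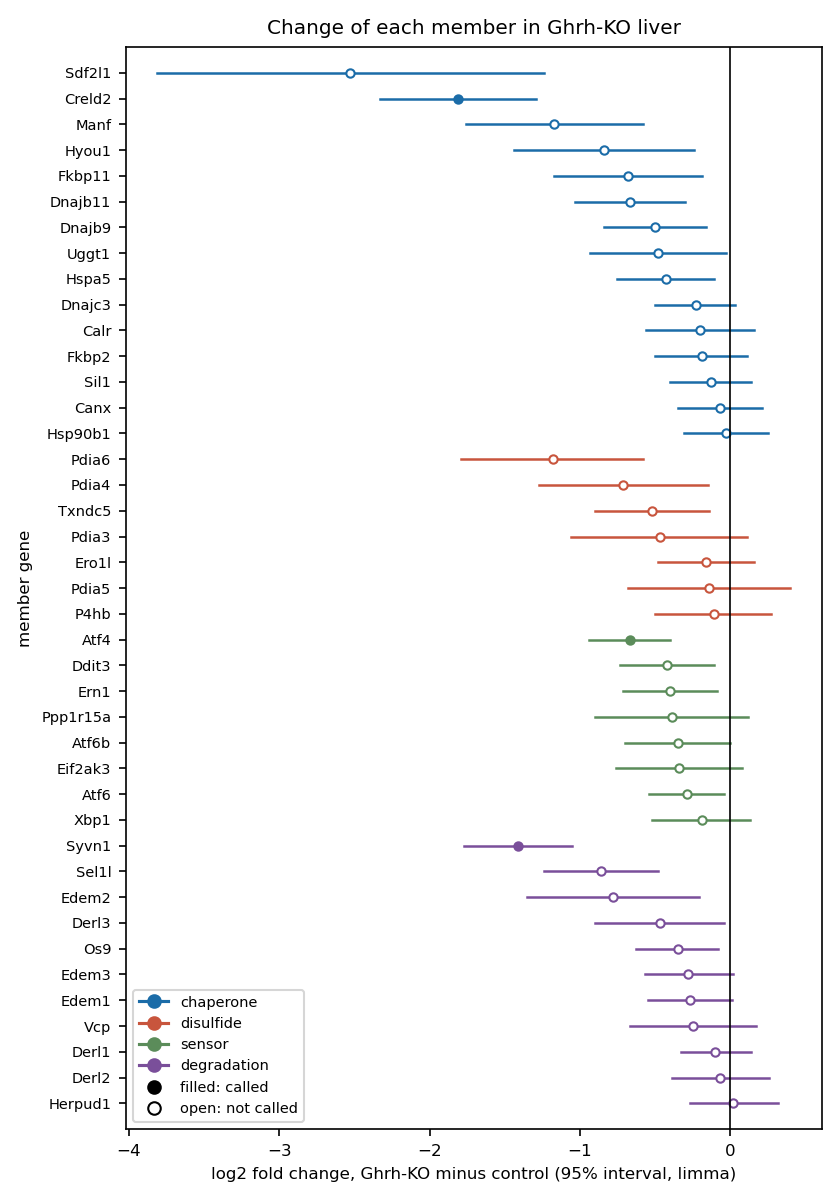
Log2 fold change of each of the 41 genes, Ghrh-KO minus control (horizontal axis), with the 95% interval from limma, by branch. Filled points are the 3 called genes, Creld2 (-1.81), Atf4 (-0.67) and Syvn1 (-1.41), and Herpud1 at the bottom is the point above 0.

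Probes at other places in the same genes gave a second reading. The 41 genes have 93 probe sets, and 43 of those not chosen above were bright enough to be tested, in 26 genes. Of these 43, 39 had a log2 fold change below 0 and 4 above, 25 were lower without overlap and 0 higher, and their median was -0.44. They share the RNA of the chosen probe sets, so they repeat the measurement and not the experiment. Probe sets of the same gene did not always read alike: Hspa5 had other probe sets at -0.46 and 0.25, and Derl1 had -0.49, -0.27 and 0.21. Hsp90b1 had another at -0.61, Derl2 had another at -0.57, and Canx had others at -0.59 and -0.41.

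Many ER chaperone genes are switched on through the ER stress element, a promoter motif bound by NF-Y and ATF6 that reads CCAAT, any 9 bases, then CCACG. It was searched on both strands from 250 bases before to 50 bases after each start site in the RefSeq promoters of assembly GRCm38.p6, which matched 36 of the 41 genes with 42 promoters. The element was in 9 of these 42 promoters, or 21.4%, and in 39 of all 32851 promoters, or 0.119%. By branch it was in 6 of 12 chaperone genes, 1 of 7 disulfide genes, 0 of 7 sensor genes and 2 of 10 degradation genes. The 10 copies are shown because they let the spacer be compared between genes; capitals mark CCAAT and CCACG, and each is written in the direction of the motif.
Creld2: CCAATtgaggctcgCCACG
Syvn1: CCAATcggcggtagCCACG
Pdia6: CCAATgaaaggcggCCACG
Derl3: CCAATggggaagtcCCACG
Hspa5: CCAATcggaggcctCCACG
Dnajc3: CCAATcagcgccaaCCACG
Calr: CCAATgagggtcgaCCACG
Canx: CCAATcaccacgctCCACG
Hsp90b1, far copy: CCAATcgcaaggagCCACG
Hsp90b1, near copy: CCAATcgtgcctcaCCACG

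The copy of Syvn1 lies at chr19:6046532-6046550 on the plus strand, at position -44 from the start, that of Hspa5 at chr2:34772025-34772043 on the plus strand, at position -65, and that of Creld2 at chr15:88819520-88819538 on the minus strand, at position -126. All 3 genes lie on the plus strand, so the Creld2 copy is turned against its gene. In the spacers, 66.7% or 77.8% of the 9 bases were G or C. The promoters of Creld2 and Syvn1, the chaperone and degradation genes that fell, are printed whole with that of Hspa5, which was not called; capitals mark the element, from CCAAT to CCACG in Syvn1 and Hspa5 and in reverse complement in Creld2. They span chr15:88819396-88819695, chr19:6046326-6046625 and chr2:34771840-34772139.
Creld2 promoter: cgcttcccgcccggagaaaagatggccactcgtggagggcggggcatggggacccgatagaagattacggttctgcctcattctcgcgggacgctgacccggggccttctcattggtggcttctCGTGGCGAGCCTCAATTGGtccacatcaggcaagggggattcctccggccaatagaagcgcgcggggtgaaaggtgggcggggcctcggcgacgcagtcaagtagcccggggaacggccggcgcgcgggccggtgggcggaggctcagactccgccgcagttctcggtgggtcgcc
Syvn1 promoter: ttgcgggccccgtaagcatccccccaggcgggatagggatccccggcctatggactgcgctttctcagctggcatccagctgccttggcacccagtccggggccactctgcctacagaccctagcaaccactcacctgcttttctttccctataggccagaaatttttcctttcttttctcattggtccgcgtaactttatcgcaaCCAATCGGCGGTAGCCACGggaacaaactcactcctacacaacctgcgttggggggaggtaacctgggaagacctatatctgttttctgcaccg
Hspa5 promoter: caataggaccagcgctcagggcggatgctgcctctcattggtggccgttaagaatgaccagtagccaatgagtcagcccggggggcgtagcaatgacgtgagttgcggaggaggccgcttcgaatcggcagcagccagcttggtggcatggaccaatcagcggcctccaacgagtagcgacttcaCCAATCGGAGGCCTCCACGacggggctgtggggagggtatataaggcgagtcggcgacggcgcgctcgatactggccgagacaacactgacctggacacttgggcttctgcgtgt

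Genes with the element differed widely in their log2 fold changes. The 9 had a median log2 fold change of -0.43, within -1.81 (Creld2) to -0.03 (Hsp90b1), and 6 of them lay apart. The 27 genes with a promoter and no exact match to this form, among them those that hold the other motifs given below, had a median of -0.39. Of these 27, 17 lay apart, with Sdf2l1 (-2.53) and Sel1l among them. Hsp90b1, which holds a pair of copies, was the nearest of the 9 to 0 on its chosen probe set, while its other probe set was at -0.61. A second form of the element (ATTGG, any base, CCACG) was in 2 of the 42 promoters, Dnajb11 and Herpud1, and in 0.0365% of all promoters. The unfolded protein response element TGACGTGG was in 2, Txndc5 and Vcp, and in 0.676% of all. CCACG by itself, which is part of all 3 motifs, was in 73.8% of the 42 promoters and 32.8% of all. A match to these letters is a description and does not show that a factor was bound.

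**Figure D5:**
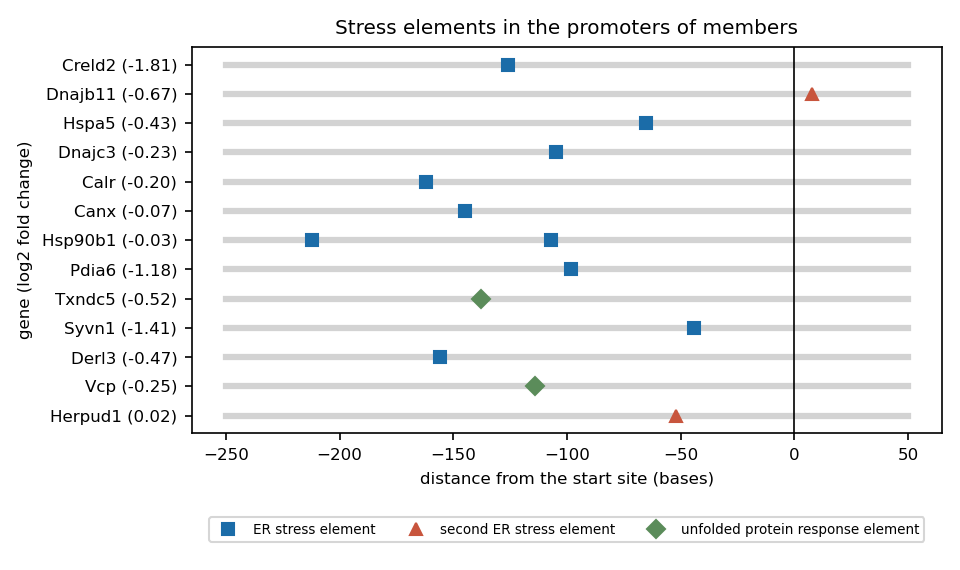
Positions of the 3 motifs within the promoters of the 13 genes that hold one (horizontal axis, bases from the start site; grey bars are the searched windows), with the log2 fold change of each gene in brackets. Elements of the first form lie from position -212 to position -44, in genes from -1.81 (Creld2) to -0.03 (Hsp90b1).

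Beyond the 41 genes, the other lists of the pathway had medians nearer to 0. Among all genes 15.7% were lower and 12.7% higher without overlap. At an unadjusted p under 0.05 in limma, 10.1% were lower and 9.15% higher. Of 32 other folding factors tested, 1 was called lower and 0 higher, and 11 were lower and 3 higher without overlap. At an unadjusted p under 0.05 in limma, 10 of them were lower and 2 higher, and the median log2 fold change was -0.16. The called gene was Ero1lb (Ero1b), the second oxidase of the ER, which read 9.36, 9.64 and 9.51 in Ghrh-KO livers, against 11.09, 11.14 and 11.27 in control livers (log2 fold change -1.66, adjusted p = 0.00165, limma). Its groups were apart by more than 1 unit. Of 24 other ERAD genes, 0 were called in either direction, 5 were lower and 0 higher at an unadjusted p under 0.05 in limma, 7 were lower without overlap, and the median was -0.07. Of 16 other signalling genes 0 were called, 4 were lower and 1 higher at an unadjusted p under 0.05, and the median was -0.19. Wfs1 (wolframin), an ER membrane protein, came nearest to a call, with a log2 fold change of -0.87 (adjusted p = 0.0514, limma).

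Genes that ATF4 is known to activate were followed because Atf4 fell. Of 22 tested, 0 were called lower and 1 higher, 4 were lower and 3 higher at an unadjusted p under 0.05 in limma, 7 were lower and 4 higher without overlap, and the median log2 fold change was -0.07. Vldlr, a lipoprotein receptor, rose: it read 7.78, 8.52 and 8.76 in Ghrh-KO livers, against 6.00, 4.86 and 6.04 in control livers (log2 fold change 2.72, adjusted p = 0.0221, limma). Asns (asparagine synthetase) read 5.38, 5.49 and 5.80 in Ghrh-KO livers, against 5.85, 9.01 and 5.66 in control livers, so its difference rests on control replicate 2. The amino acid response motif TGATGNAAN was in 37.5% of the 24 promoters of this list and in 3.95% of all promoters.

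Markers of the cells in the tissue were read beside these genes. The 10 hepatocyte markers, among them Alb, Apoa1 and Ttr, had a median log2 fold change of -0.07 with none called, and their summed levels were 147110 to 151911 in Ghrh-KO livers and 147840 to 152148 in control livers (linear units). The summed levels of 4 tested markers of B cells and plasma cells, which are also rich in ER chaperones, were 2741 to 3031 in Ghrh-KO livers and 3285 to 4230 in control livers. Ighm, the heavy chain of IgM, was at 8.87, 9.10 and 8.27 in Ghrh-KO livers, against 10.09, 10.71 and 9.06 in control livers (log2 fold change -1.20, adjusted p = 0.201, limma). The other 3 tested were nearer to 0: Sdc1, a syndecan that hepatocytes also express and the brightest of the 4, had a log2 fold change of -0.04, Mzb1, a plasma cell chaperone, one of -0.10 and Igj (Jchain), the joining chain of antibodies, one of 0.03. Each of the 4 overlapped between groups. The defining markers Cd79a, Cd79b, Ms4a1, Pou2af1, Tnfrsf17 and Prdm1 were too dim to be tested, at 3.20 to 4.87 in all arrays, and Ms4a1 and Prdm1 were higher without overlap in Ghrh-KO livers. Pancreatic acinar markers, whose tissue is rich in ER proteins, summed to 421 to 563 in Ghrh-KO livers and 1449 to 2621 in control livers over the 2 that were tested. Cela1, the brighter of the 2 in every array, fell, with 8.57, 9.04 and 8.95 in Ghrh-KO livers, against 11.16, 10.45 and 11.15 in control livers (log2 fold change -2.07, adjusted p = 0.0091, limma). Ctrb1 stood at 8.41 in control replicate 1 and between 5.24 and 5.64 in the other arrays. Cpa1, Cpb1, Cela2a and Cel were too dim to be tested and overlapped between groups, with log2 fold changes of 0.25, 0.04, 0.01 and -0.00. The part of these cells in the results above was not tested.

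Kupffer cell markers summed to 2781 to 7580 in Ghrh-KO livers and 2605 to 6342 in control livers. Stellate cell markers summed to 5998 to 7461 in Ghrh-KO livers and 4517 to 7159 in control livers. Both sums overlapped, but a sum rests on its brightest genes. The 8 stellate cell markers had log2 fold changes of 0.01 to 1.16, with a median of 0.32 and none called. Among them Pdgfrb, at 0.90, was higher without overlap (adjusted p = 0.0884, limma), and the other 7 overlapped. The 10 Kupffer cell markers ran from -1.26 (Marco) to 1.19 (Cd68), with a median of 0.28 and none called. Cd68 was higher without overlap, and the other 9 overlapped. Endothelial markers summed to 2467 to 3116 in Ghrh-KO livers and 2425 to 3176 in control livers. Cholangiocyte markers summed to 106 to 119 in Ghrh-KO livers and 111 to 215 in control livers. The 3 tested markers of T and NK cells summed to 377 to 545 in Ghrh-KO livers and 217 to 454 in control livers. That sum rests mainly on Ptprc (CD45), the brightest of the 3 in every array, with a log2 fold change of 0.92. The T cell genes Cd3e and Cd3d were at 0.17 and 0.09, and all 3 overlapped. Ghrh itself, a hypothalamic gene, was at background in liver, at 4.40, 4.55 and 4.57 in Ghrh-KO livers, against 4.48, 4.41 and 4.75 in control livers, so it cannot check the genotype labels here.

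Arrays were also weighted by their quality in limma. Ghrh-KO replicate 5 had a weight of 0.399 and control replicate 2 one of 0.535, while Ghrh-KO replicate 6 had the largest, 3.35. The weighted Ghrh-KO values, and so the calls of this fit, therefore rest mainly on replicate 6. With these weights 7 of the 41 genes were called lower, where 2.31% of all genes were. The 4 added to Creld2, Syvn1 and Atf4 were Sdf2l1, Manf, Sel1l and Dnajb9. Creld2 and Syvn1 kept their calls under all 15 alternatives tried, the leaving out of each animal among them, and Atf4 did not.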

How the data were processed

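Liver RNA of 3 Ghrh-KO and 3 control mice was hybridised to Affymetrix Mouse Genome arrays. The authors computed RMA values, which are background-corrected, quantile-normalised and summarised per probe set, and deposited them on the log2 scale for 45101 probe sets; the version is not given in the sources used here. Array medians lay between 4.95 and 4.99. The number of arrays limits the precision.

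Without the 64 control probe sets, the 25145 brightest by their mean were tested, the number in the study's methods, whose detection filter cannot be repeated from RMA values. Of all probe sets, 34945 had 1 gene in the platform annotation, 932 several and 9160 none, and only the first were named. The contrast of Ghrh-KO minus control came from lmFit and eBayes in limma 3.58.1 (R 4.3.3) with Benjamini-Hochberg adjustment. The method was checked on simulated data with independent noise that was equal across arrays, so the check does not cover arrays of unequal quality. Genes whose arrays are given are those with an adjusted p under 0.05, the 2 with the largest change in each branch, and Ghrh as the targeted gene. Manf, Hspa5, Hsp90b1, Herpud1, Asns, Ighm and Ctrb1 were added after their values were seen. Wfs1, given without its arrays, was also added then. The members and all lists were chosen with earlier results of these data known, and some stand in the study's own lists from these arrays. Levels are not comparable between genes. Promoters were from RefSeq (GRCm38.p6); protein sequences were not used here. Python 3.11.15 and matplotlib 3.10.9 made the figures. Alternatives were other filters on dim probe sets, the probe set with the lowest p, leaving out cross-hybridising probe sets, another normalisation, an intensity trend, array weights, and leaving out each array, or control replicate 2 and Ghrh-KO replicate 5 together.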

Additional observations from a re-analysis of the deposited data

How the results depend on the processing

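The count of genes called lower was 3, and 7 with array weights; with any fold allowed it was 3, 7 with array weights and 5 with the probe set of the lowest p. It was 2 to 3 with 1 array left out, and no alternative called a gene higher. Over all genes 46 to 95 were called lower with 1 array left out, against 121 with all 6. Atf4 was not called with any single array left out (log2 fold change -0.71 to -0.62), with both wide arrays left out (-0.75) or with median centring (-0.63, adjusted p = 0.0564, limma); leaving out arrays also leaves fewer samples. Sdf2l1 was called without Ghrh-KO replicate 5 (-1.83), without both wide arrays (-1.72) and with array weights (-2.02), Pdia6 with its probe set of the lowest p (-1.52), and Sel1l with the intensity trend (-0.86) and array weights (-0.83). The degradation median was -0.28, -0.49 with the probe sets of the lowest p, and -0.38 to -0.27 with 1 array left out. The disulfide median of -0.47 was -0.24 without both wide arrays and -0.63 to -0.27 with 1 array left out. The cause of these shifts was not tested. No median or named gene reversed. No paired analysis was possible because the labels give the 2 groups no common replicate number.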
